A study of Drosophila melanogaster with 3 samples.

Results

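Peaks of YL-1 in gene bodies, close to but outside the promoter, were examined in Drosophila melanogaster embryos. A peak was included if its summit lay inside a protein-coding gene and over 250 and up to 1000 bp from the nearest annotated protein-coding transcription start site (TSS), in the dm6 build. Of 5986 peaks that passed the authors' irreproducible discovery rate (IDR) threshold, 621 met this rule, or 10.4% (exact Clopper-Pearson 95% interval 9.61% to 11.2%). The rule used positions only, not signal. The intervals given here cover the counting of peaks only. The other IDR peaks were 4371 promoter peaks, with a summit within 250 bp of a TSS, 587 gene-body peaks beyond 1000 bp and 407 intergenic peaks.

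The material was whole embryos aged 0 to 24 h, pooled from males and females, of a transgenic line that stably expresses YL-1 with GFP at its C-terminal end. Chromatin was sonicated to 200 to 800 bp and precipitated with an antibody against GFP, in 3 biological replicates of this single group. The labels used here do not state which promoter drives the fusion, and control libraries were not analysed here. Signal from a few cell types of the embryo and weak signal from all of them cannot be told apart in such material. The lists give no read counts, so the depth of each library is unknown. Replicate 1 had a highest signal of 376, replicate 2 of 379 and replicate 3 of 760, each among 30000 listed regions, so signals were compared within a list, by rank or as a multiple of the list's median. The strongest 5986 regions of each replicate are called top regions.

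YL-1 belongs to the Domino/Tip60 chromatin complexes. These swap the variant H2Av for histone H2A and also acetylate histones. H2Av is known from the first nucleosomes after active start sites. In Drosophila, promoters of housekeeping genes often carry the DNA replication-related element (DRE), bound by DREF, or motif 1, bound by M1BP. GA repeats are bound by GAGA factor, the product of Trl, and by CLAMP, and occur at many promoters with paused polymerase. In Drosophila, first introns of developmental genes often hold enhancers and further start sites.

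Windows of 300 bases around the summit, on the plus strand of dm6, are shown for 3 strong intronic members, and for 1 intronic member with each other repeat or promoter element. They are not the strongest of all, since 1 chromosome arm was left out: HmgZ and Pcf11, also intronic and stronger than larp, are on it and hold no GA repeat in their windows, and Pcf11 holds a CA repeat. Sequence is from the RefSeq copy of the assembly. Capitals mark the GA repeat GAGAGAG in CG9663, Lk6 and larp. They mark the CA repeat CACACACA in HDAC1. In Stt3A they mark TATCGATA, the letters of the DRE, and in CG9135 they mark GGTCACAC, the core of motif 1. Either strand counted. The window of CG9663, a gene of the ABC transporter family, is chr2L:3302031-3302330. That of Lk6, a kinase that phosphorylates the cap-binding factor eIF4E, is chr3R:11760893-11761192. That of larp, a La-related RNA-binding protein, is chr3R:28326464-28326763. That of HDAC1, a histone deacetylase, is chr3L:4627029-4627328. That of Stt3A, a catalytic subunit of oligosaccharyltransferase, is chrX:21053103-21053402, and that of CG9135 is chr2L:6051180-6051479. All the windows are intronic except that of Stt3A, which also touches an exon.
CG9663: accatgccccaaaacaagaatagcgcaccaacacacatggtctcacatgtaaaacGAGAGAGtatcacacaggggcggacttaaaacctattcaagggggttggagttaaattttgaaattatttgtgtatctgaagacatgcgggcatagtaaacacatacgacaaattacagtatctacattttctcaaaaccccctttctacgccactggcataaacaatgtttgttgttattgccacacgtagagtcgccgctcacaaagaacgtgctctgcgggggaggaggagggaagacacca
Lk6: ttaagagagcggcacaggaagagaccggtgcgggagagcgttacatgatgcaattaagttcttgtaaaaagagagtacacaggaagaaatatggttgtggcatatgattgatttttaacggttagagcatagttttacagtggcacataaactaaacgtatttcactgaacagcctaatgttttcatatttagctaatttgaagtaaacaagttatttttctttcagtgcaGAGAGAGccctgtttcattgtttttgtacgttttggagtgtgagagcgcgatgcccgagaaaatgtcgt
larp: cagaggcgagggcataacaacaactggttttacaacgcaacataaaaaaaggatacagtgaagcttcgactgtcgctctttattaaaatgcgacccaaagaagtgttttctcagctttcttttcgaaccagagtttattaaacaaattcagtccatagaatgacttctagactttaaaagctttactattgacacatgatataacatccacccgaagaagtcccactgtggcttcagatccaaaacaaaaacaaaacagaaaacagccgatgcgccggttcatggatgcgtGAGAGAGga
HDAC1: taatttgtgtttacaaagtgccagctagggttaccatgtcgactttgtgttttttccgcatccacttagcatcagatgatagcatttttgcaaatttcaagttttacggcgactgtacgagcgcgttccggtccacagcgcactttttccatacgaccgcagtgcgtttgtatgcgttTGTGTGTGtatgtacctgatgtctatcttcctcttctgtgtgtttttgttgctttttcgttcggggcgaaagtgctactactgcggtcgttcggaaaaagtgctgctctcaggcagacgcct
Stt3A: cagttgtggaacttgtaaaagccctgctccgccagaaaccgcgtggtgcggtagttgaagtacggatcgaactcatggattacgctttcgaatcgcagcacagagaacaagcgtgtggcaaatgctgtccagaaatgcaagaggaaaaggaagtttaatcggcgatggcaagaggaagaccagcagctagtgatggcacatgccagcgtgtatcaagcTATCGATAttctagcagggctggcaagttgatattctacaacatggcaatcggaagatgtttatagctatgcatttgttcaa
CG9135: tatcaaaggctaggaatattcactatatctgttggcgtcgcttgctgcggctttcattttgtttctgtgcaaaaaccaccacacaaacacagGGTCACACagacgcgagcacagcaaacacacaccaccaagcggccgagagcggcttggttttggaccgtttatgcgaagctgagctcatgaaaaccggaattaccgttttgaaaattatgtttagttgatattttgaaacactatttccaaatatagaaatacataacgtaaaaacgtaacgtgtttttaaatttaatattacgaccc

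Most of these peaks lay in introns, and most lay downstream of the start site of the gene that holds them; 269 did both. The summit was in an intron for 453 of 621 peaks (72.9%), in a 5' UTR for 122 (19.6%), in a coding exon for 38 (6.12%) and in a 3' UTR for 8 (1.29%). Of 50050 windows of 300 bp tiled through the same zone, 20128 were intronic. In 422 peaks (68.0%) the nearest TSS belonged to the same gene and lay upstream of the summit. Counting a nearest TSS of any gene, 424 of 621 members lay downstream of it. So did 36102 of the 50050 windows, a larger share than that of the members. Of these 422, 269 (63.7%) were classed as intronic, which requires that no transcript of a protein-coding gene has an exon there. In intron 1 of a transcript that starts at that TSS lay 293 (69.4%, exact 95% interval 64.8% to 73.8%), a count that includes summits in an exon of another transcript. A second set of 169 peaks (27.2%) lay upstream of an internal TSS of their gene, and 159 of these were in introns. A further 28 lay inside one gene and upstream of the TSS of another, and 2 lay inside one gene and downstream of the TSS of another. The distance to the TSS had a median of 414 bp, with quartiles of 306 and 630 bp. Only 21 peaks (3.38%) had a TSS of a non-coding gene within 250 bp.

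Summits became rarer with distance from the start site. Inside genes and downstream of the nearest TSS, the density was 111 summits per Mb from 250 to 300 bp, 26.8 per Mb from 500 to 600 bp, 27.1 per Mb from 700 to 850 bp and 21.1 per Mb from 850 to 1000 bp. In the replicates the first and last of these densities were 122 ± 15.5 and 24.3 ± 1.40 per Mb (SD, n = 3). Upstream of the nearest TSS, but still inside a gene, the density was 164 per Mb in the nearest and 17.7 per Mb in the farthest of these bins. Outside genes the same bins held 129 and 14.2 summits per Mb. Across the whole range there were 39.2 summits per Mb downstream within genes, 47.0 upstream within genes and 43.0 outside genes. The replicate values overlapped between these sides, with 45.9 ± 5.50, 49.6 ± 4.53 and 45.2 ± 5.82 per Mb (SD, n = 3).

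**Figure D1:**
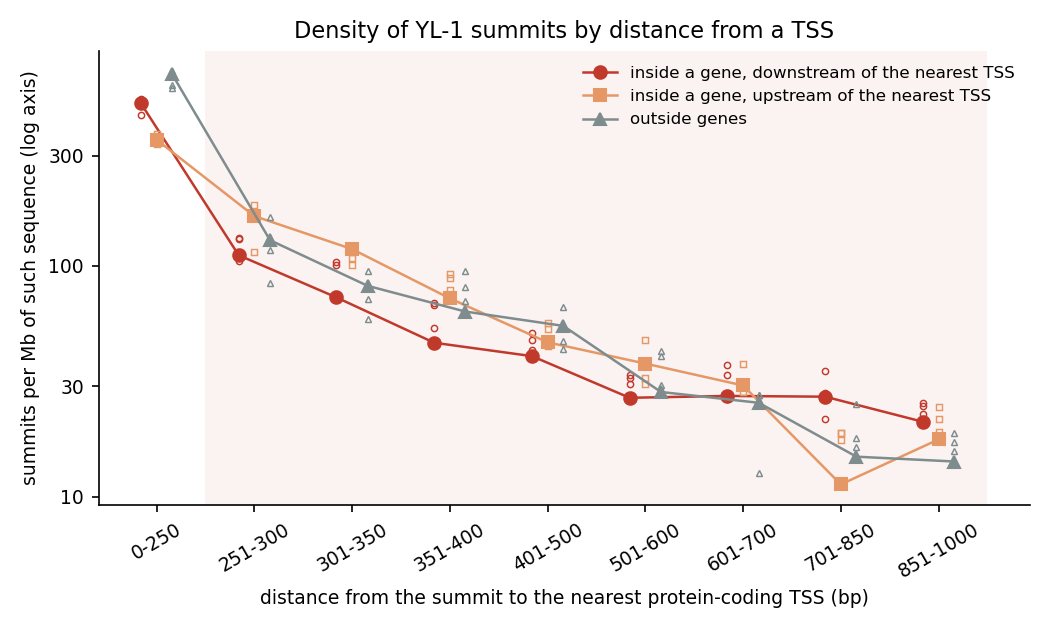
Density of YL-1 summits, in summits per Mb of sequence on a log axis, by distance to the nearest protein-coding TSS. Filled symbols and lines are the IDR list, small open symbols are the top regions of the 3 replicates, and the shaded range is that of the rule; the density inside genes downstream of the TSS falls from 111 to 21.1 per Mb across it.

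Taken as a whole, the zone held about its share of bases. It made up 11.2% of the chromosome arms and 10.4% of summits, a ratio of 0.925. The ratio was 1.11, 1.06 and 0.977 in the top regions of replicates 1, 2 and 3, so it lay on both sides of 1. With an outer limit of 500 bp the ratio in the IDR list was 1.57. Gene bodies beyond 1000 bp made up 51.5% of bases and held 9.81% of summits, a ratio of 0.191. The replicate ratios were 1.05 ± 0.0679 in the zone and 0.196 ± 0.0209 beyond it (SD, n = 3), higher in the zone in 3 of 3 replicates. An exact two-sided sign-flip permutation test over the 3 replicates gave p = 0.25, the smallest p it can give with this number of replicates, so no such test here can reach 0.05.

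The peaks were weaker than promoter peaks. Their signal, the authors' value for each region, had a median of 193 and a range from 137 to 856, against a median of 230 at promoter peaks, 185 at gene-body peaks beyond 1000 bp and 191 at intergenic peaks. The ratio of medians to promoter peaks was 0.839, and 0.848 ± 0.00623 in the replicates (SD, n = 3; exact sign-flip permutation p = 0.25). To gene-body peaks beyond 1000 bp the ratio was 1.04, and 1.06 ± 0.0161 in the replicates (SD, n = 3), and to intergenic peaks it was 1.01, and 1.04 ± 0.00741 (SD, n = 3). Above the median of the IDR list stood 39.0% of the members, against 54.7% of promoter peaks. They made up 8.36% of the strongest decile of the IDR list and 14.2% of the weakest decile.

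Part of the set adjoined a promoter peak. Of 621 peaks, 167 (26.9%, exact 95% interval 23.4% to 30.6%) overlapped an IDR region with a promoter summit, and these lay near the inner limit, with a median distance of 307 bp and none beyond 572 bp. The 454 others had a median distance of 508 bp. Median signal was 192 in the overlapping peaks and 193 in the others. The nearest TSS had an IDR summit of its own within 250 bp for 235 peaks (37.8%). With only peaks above the median signal of the list kept, members and TSS summits alike, the share was 24.0%. That value leaves out weaker summits at the TSS, so it does not show that strong members less often have one. A total of 382 peaks (61.5%, exact 95% interval 57.6% to 65.4%) neither overlapped a promoter peak nor had a summit at the nearest TSS. Several summits can share a region in this list. In all, 11 members shared theirs with another IDR summit, so the 621 summits came from 618 regions. Some of these regions overlapped, and joined where they did they formed 582 separate intervals.

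Replicate support was lower than for promoter peaks and higher than for other peaks. A top region was present in all 3 replicates for 419 of 621 peaks (67.5%), against 4311 of 5986 IDR peaks (72.0%), 77.6% of promoter peaks, 49.4% of gene-body peaks beyond 1000 bp and 51.8% of intergenic peaks. It was present in 2 replicates for 142 peaks, in 1 for 58 and in 0 for 2. Among members that overlapped a promoter peak, 153 of 167 (91.6%) had a top region in all 3 replicates, and 266 of 454 (58.6%) of the others did. A replicate region that overlaps such a member can be the region of the promoter peak itself. When the summit of a top region had to lie within 100 bp in each replicate, 39.0% of members had one in all 3.

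Whether a summit fell inside the zone depended on the replicate near the inner limit. The nearest summit of an overlapping top region was in the same class for 440, 428 and 486 members in replicates 1, 2 and 3. It was a promoter summit for 75, 82 and 76 members. The median shift between the IDR summit and the replicate summit was 27.0, 28.5 and 21.0 bp, and the upper decile of shifts began at 177, 190 and 148 bp. From 250 to 300 bp, 35.5% ± 2.56 of members had a promoter summit in a replicate (SD, n = 3), against 5.13% ± 0.634 from 400 to 500 bp and none beyond 600 bp. All 3 replicate summits were in the zone for 272 members (43.8%). No replicate summit was in the zone for 22.

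**Figure D2:**
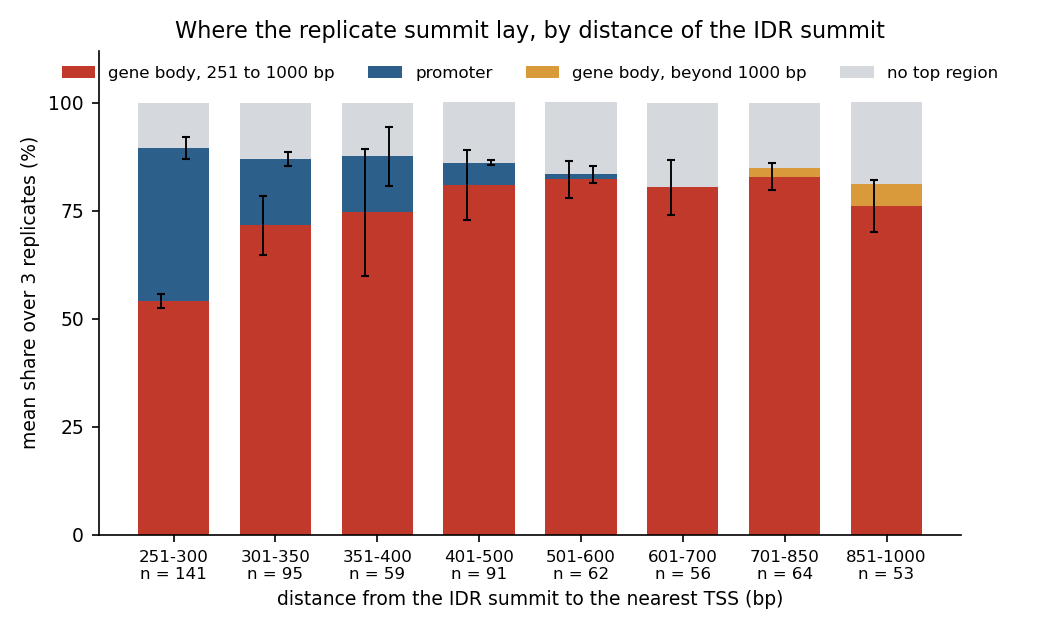
Class of the replicate summit for the gene-body peaks, as the mean share over 3 replicates (in percent), by the distance of the IDR summit from the nearest TSS in bp. Bars stack the classes, error lines are the SD of the lower and of the promoter class (n = 3 replicates), and n is the number of members; the promoter share is 35.5% from 250 to 300 bp and 0 beyond 600 bp.

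Signals just inside and just outside the limits of the rule overlapped. Within 2 bp inside the inner limit lay ATPsynO (signal 300), stc (218), LanB1 (144), gw (441) and rno (276). Just outside lay CG31729 (235) and SsRbeta (175) at 250 bp, and ZnT63C (282), mbt (213) and Atg8a (208) at 249 bp. Just inside 1000 bp lay CycG (140), CBP (148), C3G (158), Raf (248) and mei-W68 (186), at 999 to 987 bp. Just outside lay CBP (152), osa (160), CG6330 (151), UQCR-6.4L (146) and Hsp83 (288), at 1001 to 1016 bp.

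The strongest member lay in an intron of CG9663 (FBgn0031516), on chr2L:3302013-3302338, 949 bp downstream of the TSS. Its IDR signal of 856 was 3.92 times the median of the list and ranked 30. In replicates 1, 2 and 3 its signal was 180, 208 and 454, at ranks 122, 49 and 18. It carries the GA repeat shown above, and its TSS had a promoter summit as well.

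HmgZ and HmgD, overlapping genes on opposite strands for high mobility group chromatin proteins, shared the next region (chr2R:21703177-21703685). Its 2 summits lay 531 and 730 bp upstream of an internal TSS of HmgZ, in an intron, with IDR signals of 836 (rank 37) and 637 (rank 113). The replicate region there had signals of 225, 211 and 409, at ranks 48, 47 and 33. Neither gene had an IDR summit within 250 bp of a TSS. Another member in HmgZ had a signal of 176 and another in HmgD one of 153, so each gene held 3.

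The Lk6 peak (FBgn0017581, chr3R:11760875-11761222) lay in an intron, 964 bp upstream of an internal TSS, with an IDR signal of 818 at rank 40. Its replicate signals were 184, 214 and 418, at ranks 110, 41 and 32. The larp peak (FBgn0261618, chr3R:28326420-28326792) lay in an intron 350 bp upstream of an internal TSS, with an IDR signal of 688 at rank 83. Its replicate signals of 141, 161 and 387 ranked 322, 141 and 41. Both genes had a promoter summit at another TSS but none at the nearest one.

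Other members among the 15 strongest lay in genes of varied function. The peak of Pcf11, a pre-mRNA cleavage factor, lay 303 bp into the gene with a signal of 718 (rank 69) and overlapped a promoter peak. FBXO11, an F-box substrate receptor, had its summit in a 5' UTR at 290 bp with a signal of 643 (rank 108), and also overlapped a promoter peak. The peaks of wun, a lipid phosphate phosphatase that guides germ cells, and mts, the catalytic subunit of protein phosphatase 2A, had signals of 584 and 535, at 384 and 630 bp. Neither overlapped a promoter peak, and neither gene had a promoter summit. Rtnl1, a reticulon of the endoplasmic reticulum, had a signal of 550 and Ubi-p63E, a polyubiquitin gene, one of 541, each upstream of an internal TSS. For Ubi-p63E the summit in replicates 1 and 3 was a promoter summit. The HDAC1 peak (FBgn0015805) lay 445 bp into the gene with a signal of 545 (rank 190) and replicate signals of 145, 162 and 250, at ranks 284, 135 and 232.

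Genes for chromatin proteins stood among the 15 strongest members. The peak of mod(mdg4), an insulator-associated BTB protein, lay 978 bp downstream of the TSS with a signal of 670 (rank 91) and replicate signals of 176, 188 and 303, at ranks 134, 74 and 108. The peak of ph-p, a Polycomb repressive complex subunit, had an IDR signal of 648 (rank 106). Its replicate signals were 62.0, 162 and 435, at ranks 3277, 133 and 24, so that replicate 1 stood far below the others. A second ph-p peak in the 5' UTR, 395 bp from its TSS, had a signal of 519 and replicate ranks of 153, 518 and 192.

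**Figure D3:**
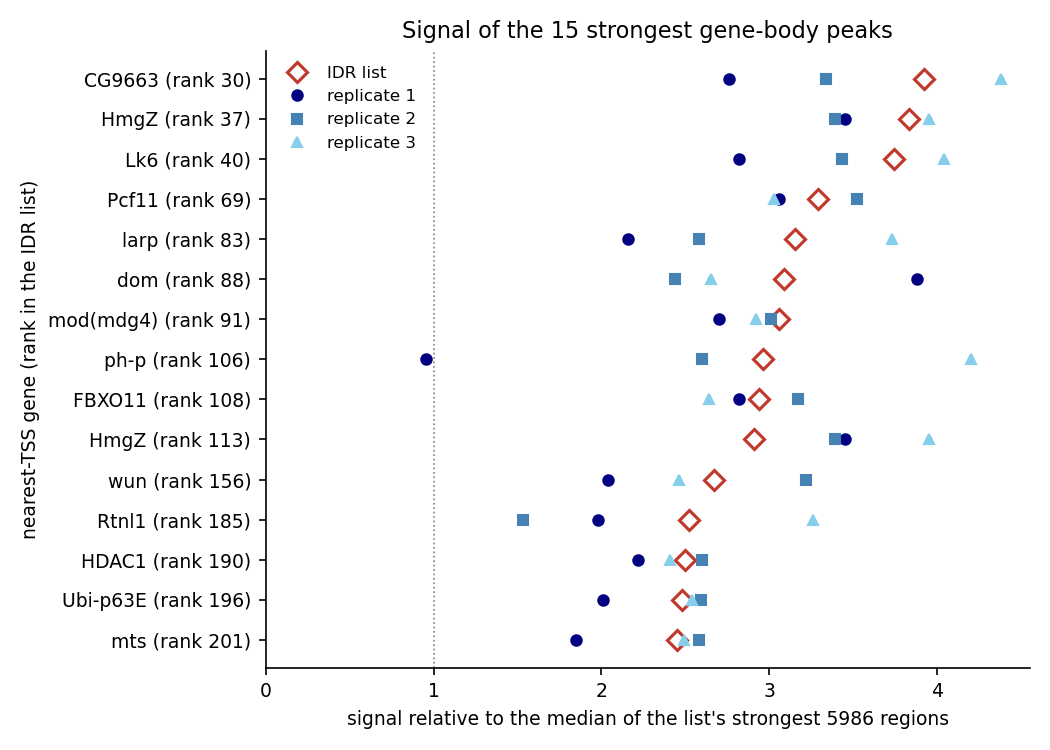
Signal of the 15 strongest gene-body peaks as a multiple of the median of the strongest 5986 regions of each list, with the IDR list as open diamonds and the 3 replicates as filled symbols; genes are those of the nearest TSS. The ph-p peak at rank 106 has replicate 1 at a signal of 62.0, rank 3277, far left of the other 2 replicates, and the HmgZ summits share 1 replicate region.

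YL-1 peaks of this kind lay in genes of the Domino/Tip60 complexes themselves. Of 19 listed genes, 3 held one: dom, the ATPase of the complex, Hcf and E(Pc). In all protein-coding genes the share was 4.06% (566 of 13945). The share of the 19 genes was 15.8% ± 9.12 in the replicates (SD, n = 3). Of the 19, 16 (84.2%) were bound at a promoter, against 33.4% of all genes. The dom region chr2R:21323198-21324186 carried 2 summits, 255 and 465 bp into the gene in an intron, with IDR signals of 674 (rank 88) and 396 (rank 637). The region also spans the TSS itself. In replicate 2 the summit nearest the one at 255 bp was a promoter summit. The overlapping replicate region had signals of 253, 152 and 275, at ranks 26, 173 and 150. Hcf, host cell factor, had a summit in a 5' UTR, 262 bp downstream of its TSS (signal 373, rank 786). Its replicate signals were 86.9, 97.7 and 198, and in replicate 3 the summit was a promoter summit. E(Pc), Enhancer of Polycomb, had a summit 284 bp upstream of an internal TSS (signal 480, rank 299) that overlapped a promoter peak. Replicate 1 listed no region there, and replicates 2 and 3 had signals of 163 and 210. In replicate 3 the E(Pc) summit was a promoter summit. With an inner limit of 300 bp, 1 of the 19 genes held a member.

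Many genes that hold such a peak were also bound at a promoter. Of 566 genes with a member, 330 (58.3%) had an IDR summit within 250 bp of a TSS, against 4655 of 13945 protein-coding genes (33.4%). The 566 genes include those of the 167 members that overlapped a promoter peak, which can raise this share. Without these members 408 genes held one, and their share bound at a promoter is not given here. The replicates gave 627 ± 32.6 genes with a member (SD, n = 3). One member was held by 488 genes, 2 by 64 and 3 or more by 14. CG1677, a gene on the X that spans several other genes, held 5. All 5 summits lay nearest a TSS of a gene nested in it: CBP with summits 273 and 997 bp upstream, Dok with one 863 bp downstream, brk with one 638 bp upstream and unc-119 with one 280 bp downstream. Their signals ran from 148 to 500. Of the 3 members held by ush, a zinc finger cofactor, 2 lay nearest a TSS of the nested gene cbt.

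The other genes with 3 members include Atpalpha, the sodium pump subunit, and Diap1, an inhibitor of apoptosis. Atpalpha had summits with signals of 255, 221 and 160, and Diap1 of 370, 255 and 224. The Atpalpha regions of 221 and 160 overlapped. Sin3A, a corepressor that acts with HDAC1, had 496, 193 and 174, and its regions of 496 and 174 overlapped. The nuclear receptor gene Hnf4 had 233, 200 and 156, all upstream of internal TSSs, and Hnf4 had no promoter summit. The zinc finger and BTB factor gene lola had 228, 186 and 152, and its regions of 228 and 152 overlapped. The remaining genes were CAP, HmgD, HmgZ, Larp4B, Msp300, mask and milt. Members also overlapped each other in Larp4B, Msp300 and mask, and shared a region in HmgD and HmgZ. A gene with 3 members therefore need not have 3 separate regions.

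The share of genes with a member varied between gene lists, beside 4.06% of all protein-coding genes. In the IDR list RNA-binding regulators had the highest share, 7 of 20 (35%). In the replicates their share was 28.3% ± 2.89 (SD, n = 3), below the 31.0% of cytoskeleton and cell polarity genes. They were Hrb98DE, Imp, Rm62, brat, elav, lark and sqd. The summit of Hrb98DE, an hnRNP gene, lay in a coding exon at 331 bp with a signal of 408, sqd, another hnRNP gene, had one at 819 bp with a signal of 337, and brat, a translational repressor, had one 672 bp upstream of an internal TSS with a signal of 333. Of the 20 genes, 12 (60.0%) were bound at a promoter, against 33.4% of all genes. Without members that overlap a promoter peak, 4 of the 20 remained with one, against 7 of 29 cytoskeleton and cell polarity genes.

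Among insulator and promoter-motif factors, 5 of 16 genes (31.2%) held a member, and 12 (75%) were bound at a promoter. They were BEAF-32, Clamp, Trl, mod(mdg4) and su(Hw). Clamp, which encodes the GA-repeat-binding factor CLAMP, had a summit in an intron, 419 bp downstream of its TSS. The signal of this summit was 527 (rank 213), with replicate signals of 148, 129 and 255. It overlapped a promoter peak. Trl, which encodes GAGA factor, had one 316 bp upstream of an internal TSS with a signal of 185, and replicate signals of 23.5, 67.2 and 96.1. Leaving out members that overlap a promoter peak left 2 of the 5.

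Cytoskeleton and cell polarity genes had 7 of 29 with a member (24.1%), with 31.0% in each replicate. The strongest were alphaTub84B (signal 395, in an intron), rhea, the talin gene (222), and jar, the myosin VI gene (211). For alphaTub84B the summit in replicates 2 and 3 was a promoter summit. Chaperone genes had 3 of 13 (23.1%): Hsc70-4 (signal 450), Hsp60A (214) and Hsc70-3 (174). In growth control, 3 of 18 genes (16.7%) held a member: InR, the insulin receptor gene (507), Pi3K92E (252) and Akt (143). Translation factors had 8 of 54 (14.8%), and eEF1alpha1 (370), eIF1 (256) and eRF1 (224) were the strongest. Without members that overlap a promoter peak, 2 of these 8 remained, and with an inner limit of 300 bp 5 of the 54 genes held one. For eIF1, too, the summit in replicates 2 and 3 was a promoter summit.

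Developmental signalling genes had 7 of 55 with a member (12.7%): Stat92E (signal 425), Mad (281), neur (213), H (164), spi (158), tkv (152) and drk, whose summit lies nearest the TSS of another gene. Without members that overlap a promoter peak, 4 of these 7 remained. Polycomb and trithorax genes had 3 of 31 (9.68%): ph-p, Su(z)2 (146) and Utx (142). Neuronal genes had 2 of 20 (10.0%), Syx1A (172) and elav (147). A stronger member, with a signal of 531 (rank 209), lay 286 bp upstream of the elav TSS. It lies inside the gene arg and not inside elav, so it is not counted for elav here. Cytoplasmic ribosomal protein genes had 5 of 86 (5.81%), although 80 of the 86 (93.0%) were bound at a promoter. All 5 of their members (RpL26, RpL3, RpL40, RpS29 and RpS3) overlapped a promoter peak. The count was 11 with an inner limit of 200 bp and 2 with 300 bp. Ecdysone and nuclear receptor genes had 1 of 25, and no homeotic gene of 8 and no maternal, gap or pair-rule gene of 20 held one. The replicate share of that list was 1.67% ± 2.89 (SD, n = 3). Genes can stand in more than 1 list, as elav does.

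**Figure D4:**
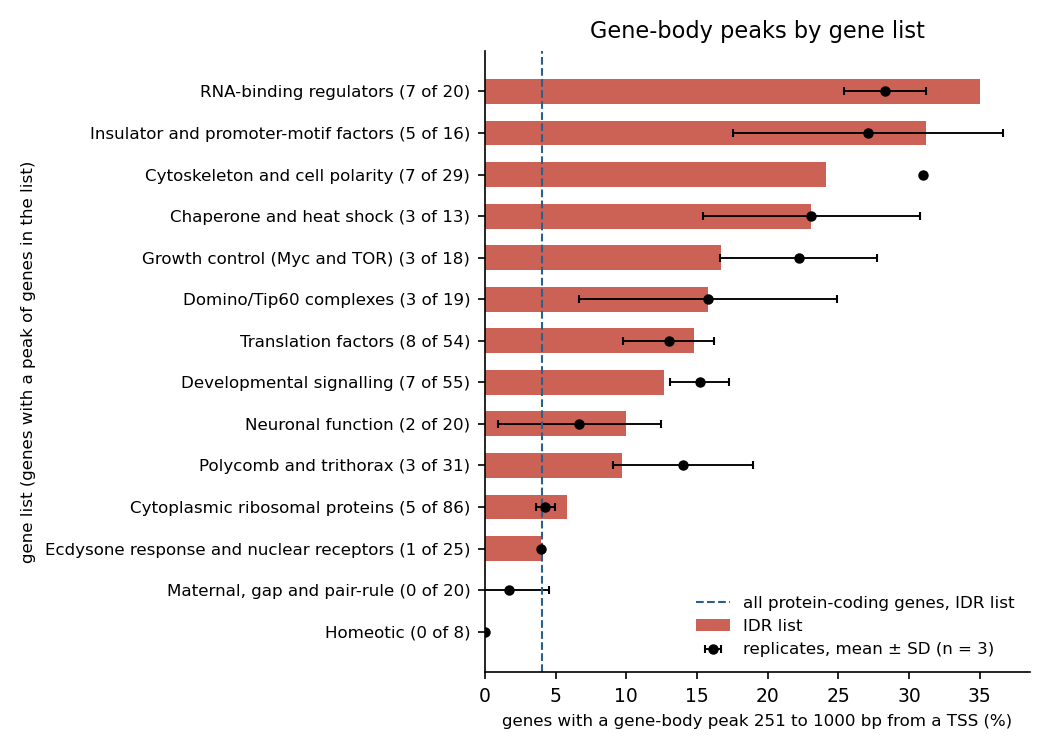
Share of the genes of each list (in percent) that hold such a gene-body peak. Bars are the IDR list, points and lines are the mean and SD over the 3 replicates, and the dashed line is the 4.06% of all protein-coding genes; in the IDR list RNA-binding regulators are highest at 35%, in the replicates cytoskeleton and cell polarity genes at 31.0%, and homeotic genes are at 0.

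The sequences differed from those of promoter peaks in their motifs. GAGAGAG was found within 150 bp of the summit on either strand in 108 of 621 members (17.4%, exact 95% interval 14.5% to 20.6%), against 205 promoter peaks (4.69%), 7.28% of all IDR peaks and 3.69% of windows of 300 bp tiled through the same zone. In the replicates it was 16.9% ± 1.21 of members and 5.33% ± 0.540 of promoter peaks (SD, n = 3), higher in members in 3 of 3 replicates (exact sign-flip permutation p = 0.25, the smallest it can give). It was also common in gene-body peaks beyond 1000 bp (14.1%) and in intergenic peaks (9.83%).

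CACACACA was found in 144 members (23.2%, exact 95% interval 19.9% to 26.7%), against 8.24% of promoter peaks, 10.3% of all IDR peaks and 5.45% of tiled windows. Gene-body peaks beyond 1000 bp held the CA repeat in 13.8% and intergenic peaks in 8.35%. In the replicates the CA repeat was in 24.1% ± 0.743 of members and 8.66% ± 0.727 of promoter peaks (SD, n = 3), higher in members in 3 of 3. Either repeat was present in 221 members (35.6%), against 515 promoter peaks (11.8%). Both were present in 31 members. Median signal was 185 in members with the GA repeat, 190 with the CA repeat and 197 with neither.

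The elements of housekeeping promoters were rare in the members. TATCGATA was found in 3 of 621 (0.483%), against 13.5% of promoter peaks, 10.1% of all IDR peaks and 0.476% of tiled windows. GGTCACAC was found in 5 (0.805%), against 14.5% of promoter peaks, 10.8% of all IDR peaks and 0.450% of tiled windows. Both elements were lower in members than in promoter peaks in all 3 replicates. Windows tiled at promoters held them in 4.37% and 3.85%. The rule keeps the window of a member off every annotated protein-coding TSS. How far position alone sets this contrast was not tested. Both elements were also rare in gene-body peaks beyond 1000 bp (0.852% and 0.170%) and in intergenic peaks (1.97% for each). The exact 95% intervals in members, 0.0997% to 1.41% and 0.262% to 1.87%, include the shares of windows tiled through the zone. They cover the counting of peaks only, and a difference from those windows was not tested. In replicates 1, 2 and 3, TATCGATA was in 0.670%, 0.560% and 0.610% of members and GGTCACAC in 0.938%, 0.560% and 0.457%.

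**Figure D5:**
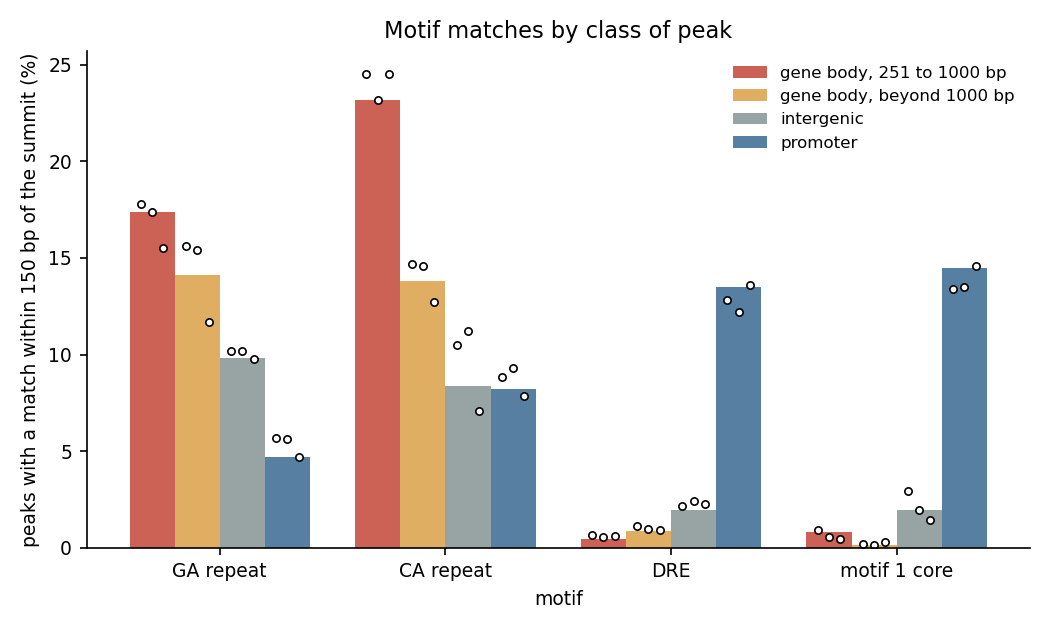
Share of peaks (in percent) with a motif match within 150 bp of the summit, by class of peak. Bars are the IDR list and white points the 3 replicates; GA and CA repeats reach 17.4% and 23.2% in the members, where DRE and motif 1 core stand at 0.483% and 0.805%.

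Other elements differed less between members and all IDR peaks, which include the members. The site of the early activator Zelda, CAGGTAG, was found in 1.45% of members and 1.39% of all IDR peaks. The E-box bound by Myc, CACGTG, was in 4.51% of members and 5.50% of all IDR peaks. Another E-box, CAGCTG, was in 14.2% of members and 21.2% of all IDR peaks, against 24.0% of promoter peaks and 14.8% of tiled windows. In the replicates CAGCTG was in 14.6% ± 0.846 of members and 23.6% ± 0.384 of promoter peaks (SD, n = 3). The core of the Pho site, GCCATTT, was in 7.57% of members and 7.94% of all IDR peaks. The TATA box letters TATAAA were in 32.7% of members, against 36.0% of all IDR peaks and 25.1% of tiled windows.

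The 2 repeats were also counted by position. The CA repeat was in 29.2% of members downstream of the nearest TSS and 10.2% of members upstream of it, against 5.59% and 5.09% of tiled windows on those sides. Read on the strand of the nearest gene, downstream members held TGTGTGTG in 20% and CACACACA in 10.6%, against 3.61% and 2.24% of tiled windows. The GA repeat was in 16.3% downstream and 19.8% upstream. In introns 20.8% of members held the CA repeat and 19.0% the GA repeat, against 8.47% and 5.47% of intronic windows. In 5' UTRs 36.9% held the CA repeat, against 18.1% of windows there. The GA repeat was more frequent in members that overlapped no promoter peak (19.8%) than in those that did (10.8%), and the CA repeat was less frequent (20% and 31.7%). These differences between subsets of members were not tested. Mean GC content was 42.2% in members, 40.6% in promoter peaks, 39.4% in gene-body peaks beyond 1000 bp and 37.5% in intergenic peaks.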

How the data were processed

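The deposited files are region lists made in the dm6 build, with the authors' own signal for each region, the −log10 of a q-value (deposited, not used for ranking) and a summit offset in bp. The labels and file headers used here name no aligner or peak caller, and the IDR step was the authors'. Summit positions, 1-based, are the deposited region start plus the offset. Gene models and start sites are those of Ensembl 115, and members and gene lists were chosen with earlier results of these data known. A summit was classed by its distance to the nearest protein-coding TSS and by whether a protein-coding gene spans it. Overlap meant at least 1 bp shared. A replicate signal is that of the strongest overlapping region in the full replicate list, and a member that adjoins a promoter peak can share that region. Motifs were exact matches on both strands within 300 bp around the summit, with each motif counted apart and each window once per motif. Except where named as windows at promoters, tiled windows of the same length were those whose middle met the same rule. All symbols of the 14 gene lists had a match. Named genes are those of the 15 strongest members, of 5 peaks on either side of each limit, of genes with 3 or more members, of the 3 strongest in each list and of Domino/Tip60 members, and other names were chosen after their values were seen. The labels call the replicates biological and say no more, so SDs and tests measure the spread between these samples. In a check of the code, 1000 of 1000 positions drawn from the genome got the class that the same annotation gives. All of 450 motifs planted in random sequence (450 of 450) were found. The check used no peak data and does not test the annotation or the peaks. The tools were matplotlib 3.10.9, scipy 1.17.1, pandas 2.3.3, numpy 2.4.6 and Python 3.11.15. Other settings tried were other limits, annotations, positions, overlap rules, numbers of top regions and motif windows, and leaving out each replicate.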

Additional observations from a re-analysis of the deposited data

How the results depend on the processing

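The share of IDR peaks in the set, 10.4%, follows its limits: it was 14.2% with an inner limit of 200 bp, 8.02% with 300 bp, 6.45% with an outer limit of 500 bp and 12.2% with 1500 bp. It was 8.09% among peaks above the median signal and 9.19% with the strongest peak of each joined interval. In the same order, the ratio to the share of bases was 1.17, 0.773, 1.57, 0.726, 0.721 and 0.819, against 0.925, and it was 0.773 with start sites of non-coding genes, so it lay on both sides of 1. The intron share, 72.9%, was 65.7%, 79.2% and 64.2% for the first 3 of these settings, 78.9% above the median signal and 78.0% with joined intervals. The share with a summit at the nearest TSS, 37.8%, was 54.5%, 33.3% and 44.6% for the first 3, 24.0% above the median, 13.5% with joined intervals, 35.3% with the middle of the region and 27.1% when counted as touching a promoter peak. Above the median and with joined intervals, the peaks left out were not counted as summits at a TSS either, which lowers these shares.

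The signal ratio to promoter peaks, 0.839, was 0.846 and 0.855 in the lists of replicates 1 and 2 and 0.984 above the median signal, where weak peaks of both classes are left out. The share with a top region in all replicates, 67.5%, was 72.0% with the outer limit of 500 bp, 94.2% above the median and 59.3% with joined intervals. It was 35.9% with 3000 top regions, 91.6% with 10000, 42.5% with an overlap of at least 0.5 of both regions and 39.0% with a replicate summit within 100 bp. Leaving out each replicate, by keeping IDR peaks with a top region in both others, gave signal ratios from 0.852 to 0.875 and shares with a summit at the nearest TSS from 40.7% to 41.5%. Of all 621 members, 72.8% to 76.5% had a top region in both others. A non-coding TSS lay within 100 bp for 1.61% and within 500 bp for 6.44%.

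Repeats stayed above and promoter elements below their share in promoter peaks in windows of 100 and 250 bp on each side. The GA repeat was in 10.6% and 26.7% of members in these windows, against 2.97% and 7.85% of promoter peaks, and in 15.5% in replicate 3. The CA repeat was in 16.7% and 33.8%, against 5.26% and 13.6%, and in 24.5% in replicates 1 and 3. The DRE was in 1.13% with 250 bp and in 0.670%, 0.560% and 0.610% in the replicates. The motif 1 core was in 0.483% with 100 bp, 1.45% with 250 bp and 0.457% in replicate 3. Leaving out members that overlap a promoter peak, a setting chosen after seeing the data, gave 19.8% for the GA repeat, 20.0% for the CA repeat and 0.441% for the motif 1 core. It left 408 of 566 genes. No comparison between groups was possible because there is 1 group of samples. The sign-flip tests compared classes of peak within each replicate.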

Other observations

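Chromosome 4, the small heterochromatic dot chromosome, held 9 members among 50 IDR peaks (18.0%, exact Clopper-Pearson 95% interval 8.58% to 31.4%). The interval includes the 11.8% of X and the 9.26% of 2R, the highest and lowest shares among the other arms. They include Hcf (signal 373) and gw, a gene of microRNA-mediated silencing (signal 441).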
